A study of Mus musculus with 28 samples.

Results

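Stretches of the mouse genome that hold genes of the AP-1 family were followed by ATAC-seq through the reprogramming of fibroblasts: the Fos locus (chr12:86760000-86870000, 110 kb), the Fosl1 locus (chr19:5400000-5500000, 100 kb), the Fosl2 locus (chr5:32390000-32520000, 130 kb) and the Jun locus (chr4:94650000-94790000, 140 kb), all in mm9 coordinates. The 4 intervals were fixed by position. In ATAC-seq a transposase cuts DNA where chromatin is accessible, and a peak marks a stretch cut more often than its surroundings. Peaks of the 28 libraries that overlapped each other were merged into regions, which gave 71 regions in the 4 loci (Fos 16, Fosl1 20, Fosl2 12, Jun 23) of 172177 in the genome. A region counted as called in a library if any peak of that library touched it. Of the 71 regions, 50 were called in at least 2 libraries (Fos 13, Fosl1 13, Fosl2 8, Jun 16), and the other 21 were called in 1 library. In the genome, 109954 of the 172177 regions were called in at least 2 libraries.

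AP-1 is a dimer of a Jun protein with a Fos protein, or of Jun proteins with one another, that binds the sequence TGANTCA and activates genes of growth, stress and matrix production. Fos is the classical immediate early gene, switched on within minutes by serum. Fosl1 encodes Fra-1 and Fosl2 encodes Fra-2, the more lasting Fos proteins of adherent cells. Jun encodes c-Jun, one of the Jun proteins with which Fos proteins pair in order to bind. Fibroblasts are known for high AP-1 activity, and many of their enhancers carry AP-1 sites. Jun overexpression is known to block reprogramming of mouse fibroblasts to pluripotency.

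All libraries came from mouse embryonic fibroblasts (MEFs) of embryonic day 12.5 on a V6.5 129XBI/6 background. Every group, MEFs included, was Tet2-/- and carried the doxycycline-inducible factors OKSM (Oct4, Klf4, Sox2 and Myc) with the activator rtTA, so no group had endogenous Tet2. The 7 groups held 4 libraries each: untreated MEFs, and cells at day 5 and at day 10 of reprogramming that had received a pMXs retrovirus with Tet2-E (a mutant the series calls stalling), with wild-type Tet2 (Tet2-WT) or with no insert (empty). Reprogramming cells were grown in 2i/LIF with doxycycline on mitomycin-treated feeder MEFs and were flow-sorted on SSEA1-RFP, whereas no sorting is given for the MEFs. Sorting, virus and culture therefore cannot be told apart from time in the comparisons with MEFs. Whether the replicates came from separate cultures or animals is not labelled, and the p-values therefore reflect variation among the libraries at hand, part of which may be technical.

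Library depth could be compared through the peak lists alone. The commonest background pileup, a relative measure of depth, averaged 0.503 ± 0.113 in the 4 MEF libraries, 0.865 ± 0.0732 in the 12 of day 5 and 0.522 ± 0.115 in the 12 of day 10 (± SD). The day 5 libraries were thus the highest on this measure, and those of day 10 and MEFs were alike on it. The measure also scales with the length to which reads were extended in peak calling. That length was not compared between libraries, so equal values need not mean equal depth. Libraries held 27809 to 72140 peaks on the chromosomes used, with a mean of 55546 in MEFs, 49831 at day 5 and 37655 at day 10, so day 10 libraries called fewer regions of any kind on average.

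The sequences just before the annotated starts of Fos and Jun are shown because both genes are textbook cases of AP-1 and CREB/ATF control through their own promoters. They were read from RefSeq (GRCm38.p6), which held 3 of the 4 genes by symbol (Fos, Fosl2 and Jun). Each run is 250 bases long and ends at the base before the transcription start, on the strand of the gene (chromosome 12, plus strand, for Fos and chromosome 4, minus strand, for Jun). Capitals mark matches to TGACNTCA, the CRE-like element, or TGACG, its shorter core, on either strand.
Fos: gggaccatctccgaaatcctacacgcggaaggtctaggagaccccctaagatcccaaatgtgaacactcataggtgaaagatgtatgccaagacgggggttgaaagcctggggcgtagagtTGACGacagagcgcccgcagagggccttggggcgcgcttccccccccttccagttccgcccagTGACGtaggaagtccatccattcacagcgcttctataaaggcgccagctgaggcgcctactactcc
Jun: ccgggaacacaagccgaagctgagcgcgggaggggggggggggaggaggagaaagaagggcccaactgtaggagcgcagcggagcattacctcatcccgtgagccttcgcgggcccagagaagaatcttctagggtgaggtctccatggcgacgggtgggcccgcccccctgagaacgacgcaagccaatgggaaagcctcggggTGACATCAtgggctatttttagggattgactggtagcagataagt
The Fos promoter held 2 matches to TGACG, beginning 129 and 66 bases before the start, and none to TGACNTCA or TGANTCA. The Jun promoter held 1 match to TGACNTCA, as TGACATCA, beginning 45 bases before the start. The Fosl2 promoter held none of these letters in a window of the same length. Over 32851 RefSeq promoters of that length, 17.8% held TGACG, 7.49% held TGACNTCA and 6.75% held TGANTCA. The motifs were chosen after the sequences had been seen, and TGACG is contained in some TGACNTCA matches. The position of these starts in mm9 was not used here, so none of the regions below is named as a promoter, exon or intron.

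Altogether 9 regions were called in all 28 libraries, 2 at Fos, 4 at Fosl1, 1 at Fosl2 and 2 at Jun. They made up 18% of the 50 regions called in at least 2 libraries, against 7.04% of all such regions in the genome. At Jun the stable pair lay side by side at chr4:94718630-94719570 and chr4:94719825-94720213. In the wider one, peaks covered 594 to 921 bp in MEFs (median 714), 480 to 669 bp at day 5 (median 614) and 326 to 681 bp at day 10 (median 574), and the groups overlapped. At Fosl2 the stable region was chr5:32437418-32438456, 1039 bp wide, with 747 to 860 bp covered in MEFs (median 792), 348 to 795 bp at day 5 (median 621) and 171 to 818 bp at day 10 (median 433). It was called in every library, and its covered length spread most widely at day 10.

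At Fos the stable regions were chr12:86826728-86827341, with the higher folds, and chr12:86814430-86815168. The fold is the authors' ratio of summit pileup to local background within a library, and in the first region it ranged from 8.22 to 11.9 in MEFs, from 6.38 to 10.1 at day 5 and from 7.83 to 10.9 at day 10. These folds describe each list and do not measure a change between libraries. In the second region, peaks covered 548 to 698 bp in MEFs (median 621), 274 to 577 bp at day 5 (median 448) and 295 to 517 bp at day 10 (median 421). Every day 10 library lay below every MEF library there, which was also true of 11.5% of all regions called in every library. At Fosl1 the stable regions with the highest folds were chr19:5424125-5425387, the widest of the 9 at 1263 bp, and chr19:5457242-5457714. The wide one was covered over 340 to 520 bp in MEFs (median 388), 279 to 832 bp at day 5 (median 531) and 371 to 1074 bp at day 10 (median 600), and the groups overlapped. Genes other than Fosl1 crowd this interval. In GRCm38 order Tsga10ip, Drap1 and AI837181 come before it and Ccdc85b, Fibp and Ctsw after it, so a region here may belong to any of them.

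**Figure D1:**
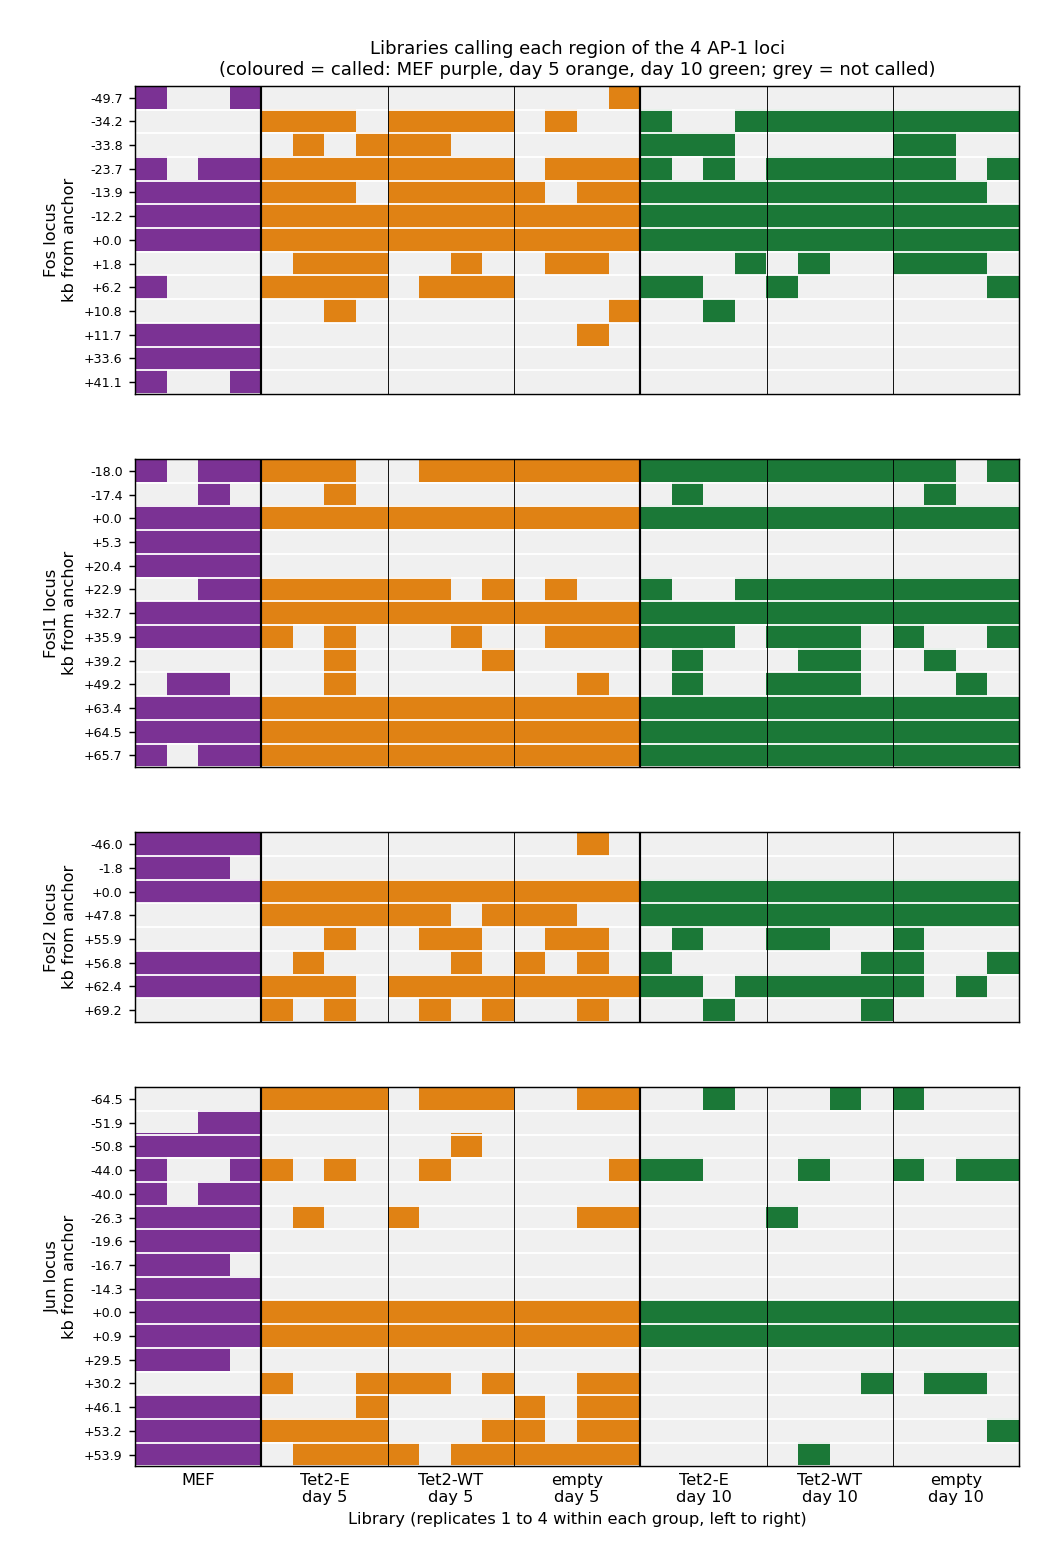
Each row is a region called in at least 2 libraries, placed by its distance in kb from an anchor (the region of its locus called in all 28 libraries with the highest median fold), and each column is a library, with coloured cells where the library called the region. Blocks called in MEFs (purple) and nearly absent at day 5 (orange) and day 10 (green) are most numerous at the Jun locus, where 10 of 16 regions were called less often at day 10.

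Comparing day 5 with MEFs asks which of these sites had lost or gained accessibility early in reprogramming. By Fisher's exact test over libraries with Benjamini-Hochberg adjustment over all tested regions, 12 of 50 regions (24%) were called less often at day 5 at an adjusted p of 0.05 or less, against 16.1% of 99090 regions in the genome. None was called more often, against 9.81% in the genome, and 2 had more calls at an unadjusted p under 0.05, against 11.7%. The 12 were 6 of 16 regions at Jun (37.5%), 2 of 13 at Fos (15.4%), 2 of 13 at Fosl1 (15.4%) and 2 of 8 at Fosl2 (25%). The shares at Fos and Fosl1 were thus near that of the genome. In 9 of the 12 no day 5 library called the region, though with 4 MEF libraries the threshold is passed only where few later libraries call it. Of the 50 regions, 11 (6 at Jun) were called in MEF libraries only. They passed the filter of 2 libraries through MEFs alone, and such regions could only be lower later. The same filter was applied to the genome. Of the 25 regions called in all 4 MEF libraries, 5 had no day 5 call, against 23.9% of 27904 in the genome. The background pileup was higher in day 5 libraries (0.865) than in MEF libraries (0.503), and the part of depth in these calls was not tested. The count of 12 was 5 without replicate 1 and 6 without replicate 2 of every group. For Jun alone it was 2 without replicate 1, 3 without replicate 2 or 3, and 3 without MEF replicate 1 or MEF replicate 3 alone.

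Comparing day 10 with MEFs asks the same of the later stage. Of 49 regions tested, 16 (32.7%) were called less often at day 10, against 22.6% of 89226 regions in the genome, and 2 were called more often (4.08%), against 5.66%. Jun held 10 of the 16 (62.5% of its 16 regions), and Fos (16.7% of 12), Fosl1 (15.4% of 13) and Fosl2 (25% of 8) held 2 each. The median difference in the share of calling libraries, day 10 minus MEF, was -75 percentage points over the Jun regions, against -8.33 over all tested regions and 0 over those of Fos. Both comparisons rest on the same 4 MEF libraries and are not independent. Side by side, the counts at day 5 and day 10 were 6 and 10 at Jun and 2 and 2 at each of the other loci. In 13 of the 16 no day 10 library called the region, which the threshold again nearly requires. Of the 25 regions called in all 4 MEF libraries, 9 had no day 10 call, against 38.6% of 27904 in the genome. The count of 16 was 10 without replicate 1 and 9 without replicate 3 of every group, and the Jun count of 10 was 5, 6 and 4 without replicates 1, 2 and 3 in turn.

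**Figure D2:**
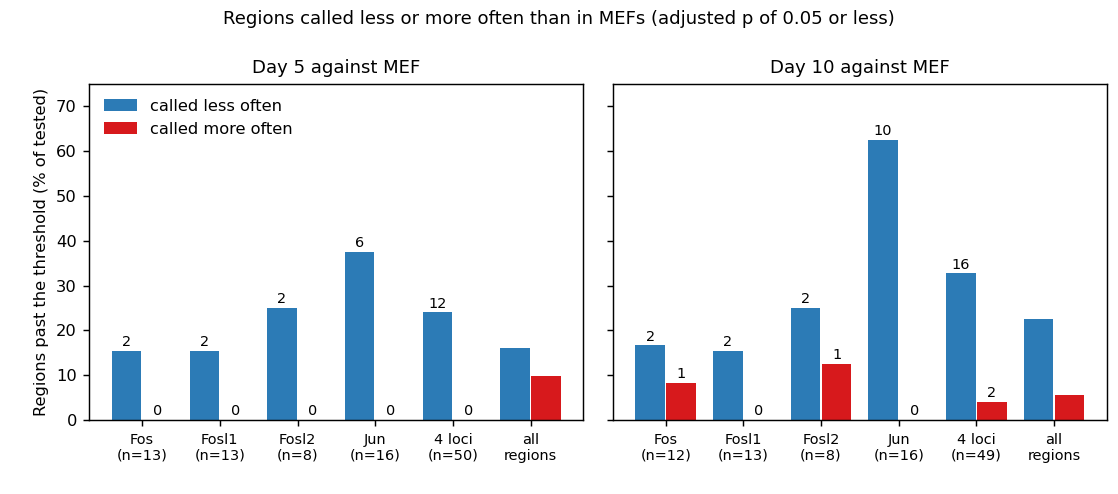
Bars give the percentage of tested regions called less often (blue) or more often (red) than in MEFs at an adjusted p of 0.05 or less, for each locus, the 4 loci together and all regions of the genome, with counts above the bars of the loci and the number tested below each name. At day 10 the Jun bar reaches 62.5%, while the genome stands at 22.6% and Fosl1 at 15.4%.

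The Jun locus carried more MEF peaks than it did later. Its 4 MEF libraries held 14, 12, 13 and 14 peaks, covering 4212, 3325, 3661 and 3380 bp. The 12 day 5 libraries held 3 to 9 peaks (median 6) covering 804 to 1974 bp (median 1328), and the 12 day 10 libraries held 2 to 5 peaks (median 4) covering 571 to 1241 bp (median 854). Every library of day 5 and every library of day 10 lay below every MEF library in covered length. The same held in 17.8% of 100 kb windows of the genome for day 5 and in 28.2% for day 10, and it still held at Jun with the same number of top peaks (27809) taken from each list. The share of windows was then 16.3% for day 5 and 21.8% for day 10. These windows are shorter than the 140 kb Jun locus, and any with coverage in at least 2 libraries was counted. They are therefore only a rough reference. The mean covered length at Jun was 1388 ± 333 bp in the 12 day 5 libraries and 889 ± 183 bp in the 12 of day 10 (± SD), against 3645 ± 406 bp in MEFs (SD, n = 4), ratios of 0.381 and 0.244. Over all peaks of the genome the ratios were 0.771 and 0.532, so covered length was lower at both days genome-wide as well. Covered length also depends on peak width. The median peak width of a library averaged 194.5 bp in MEFs, 165 bp at day 5 and 148 bp at day 10. Taking equal numbers of peaks does not remove this difference, and its part in the covered lengths of any locus was not tested.

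The covered length of Fos, Fosl1 and Fosl2 was a larger share of that in MEFs than at Jun. The ratio to MEFs was 0.594 at day 5 and 0.489 at day 10 for Fos and 0.581 and 0.565 for Fosl2. Both Fos ratios and the day 5 ratio of Fosl2 were thus below those of all peaks, and the day 10 ratio of Fosl2 was slightly above. Fos peaks covered 1859 to 3614 bp in MEFs (median 2526), 1099 to 2077 bp at day 5 (median 1617) and 779 to 1869 bp at day 10 (median 1246). Fosl2 peaks covered 1442 to 2353 bp in MEFs (median 1911), 679 to 1542 bp at day 5 (median 1139) and 447 to 1700 bp at day 10 (median 1023). At both loci the highest later libraries overlapped the lowest MEF library. When the same number of top peaks was taken from each library, Fos day 5 and day 10 libraries and Fosl2 day 5 libraries all lay below the lowest of the MEFs, beside the same window shares of 16.3% for day 5 and 21.8% for day 10. Fosl1 peaks covered 1850 to 3190 bp in MEFs (median 2249), 1537 to 2585 bp at day 5 (median 2042) and 1106 to 3018 bp at day 10 (median 2021), and the groups overlapped throughout. The Fosl1 ratio to MEFs was 0.854 at day 5 and 0.866 at day 10, and it turned to 1.10 and 1.27 with an equal number of peaks.

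**Figure D3:**
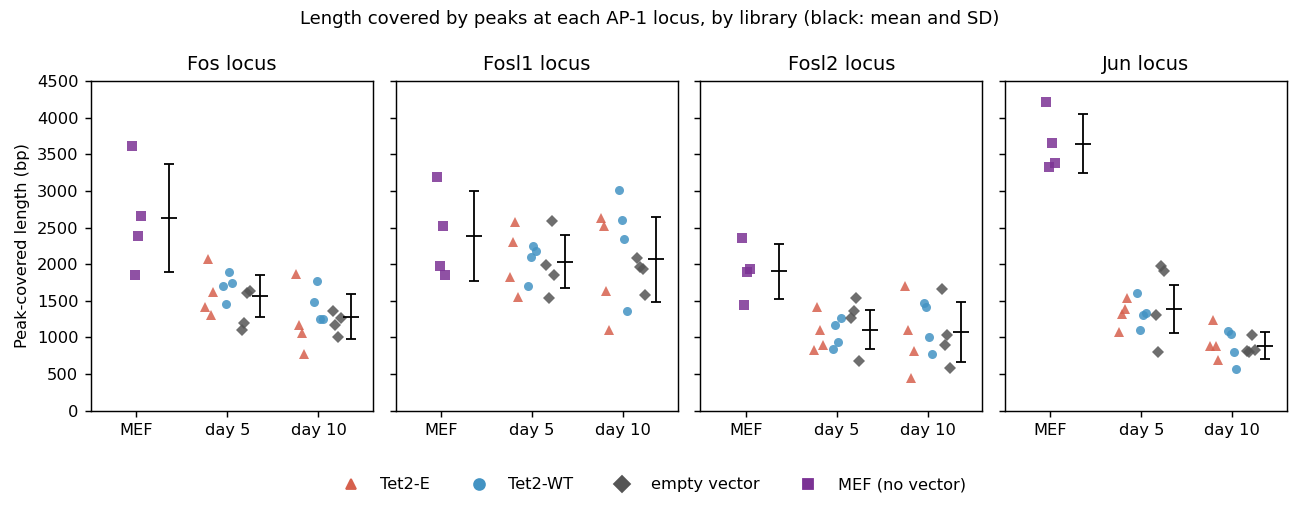
Each point is a library and gives the length in bp covered by its peaks at a locus, by day, with markers for the vectors Tet2-E, Tet2-WT and empty and for MEFs, and black bars for the mean and SD of each day. At Jun the MEF libraries (3325 bp and more) stand clear of all later ones (1974 bp and less), whereas the Fosl1 groups overlap.

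The strongest MEF sites of the 4 loci by the authors' fold were at Jun, and they were among those called less often later. The region chr4:94692581-94693079, 26.3 kb below the wide stable region (the -26.3 kb region), had folds of 16.8, 16.5, 20.6 and 16.0 in the 4 MEF libraries. Within those lists these folds stood at percentiles of 98.5 to 99.9. It was called in 4 of 12 day 5 libraries and 1 of 12 day 10 libraries, against 4 of 4 MEF libraries (adjusted p = 0.0156 at day 10 by Fisher's exact test). The later calls had folds of 4.74 to 6.38 at day 5 and 6.79 in the day 10 library. Over all 9 calls of this region, the median percentile within the own list was 52.1. The region chr4:94668117-94668471, at -50.8 kb, had folds of 19.9, 10.4, 14.2 and 14.2 in the MEF libraries. It was called in 1 of 12 day 5 libraries (exact adjusted p = 0.0165) and in none of 12 at day 10 (exact adjusted p = 0.00374), against 4 of 4 in MEFs. The day 5 call ended without replicate 1, 2 or 4 (highest exact adjusted p = 0.0833), and the day 10 call held under all 14 alternatives.

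Other Jun regions showed complete or nearly complete contrasts. The region chr4:94699346-94699726, at -19.6 kb, had MEF folds of 9.81, 7.05, 7.21 and 11.5, and it was called in none of 12 libraries at day 5 (exact adjusted p = 0.00449) or day 10 (exact adjusted p = 0.00374), against 4 of 4 in MEFs. The weaker region chr4:94704697-94704903, at -14.3 kb, with MEF folds of 6.46, 6.59, 8.06 and 3.75, had the same counts and adjusted p-values, but it did not pass with equal numbers of peaks (exact adjusted p = 0.134 at day 5 and 0.137 at day 10). The region chr4:94748482-94748664, at +29.5 kb, was called in none of the 12 libraries of either day, against 3 of 4 MEF libraries (exact adjusted p = 0.0311 at day 5 and 0.0276 at day 10). Its folds were 7.45, 6.59 and 8.91 in the MEF libraries that called it. The regions at -40.0 kb and -16.7 kb had these same counts, and all 3 calls ended when any 1 of the MEF libraries that called them was left out.

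The -26.3 kb region and 3 regions at the far end of the Jun locus passed the threshold at day 10 but not at day 5. A direct test of day 10 against day 5 called none of them. The region chr4:94765015-94765330, at +46.1 kb, was called in 4 of 12 day 5 libraries and no day 10 library, against 4 of 4 MEF libraries (exact adjusted p = 0.00374 at day 10), with MEF folds of 9.43, 8.74, 7.90 and 6.91. The region chr4:94772063-94772461, at +53.2 kb, was called in 8 of 12 day 5 libraries and 1 of 12 day 10 libraries, against 4 of 4 in MEFs (exact adjusted p = 0.0156 at day 10). Its neighbour chr4:94772639-94773256, at +53.9 kb, was called in 10 of 12 at day 5 and 1 of 12 at day 10, against 4 of 4 in MEFs (exact adjusted p = 0.0156 at day 10). Both were thus still called in most day 5 libraries and nearly uncalled at day 10. By vector, the day 5 calls of the +53.2 kb region were in 4 of 4 Tet2-E, 1 of 4 Tet2-WT and 3 of 4 empty libraries. Those of the +53.9 kb region were in 3 of 4, 3 of 4 and 4 of 4. No vector was tested at day 5 alone for these 2 regions. The MEF folds were 13.4, 9.51, 11.3 and 9.68 for the +53.2 kb region and 10.4, 7.64, 9.44 and 7.24 for the +53.9 kb region. Of these 2 and the -26.3 kb region, each failed the threshold without 3 of the 4 replicate numbers in turn (highest exact adjusted p = 0.0790), while the +46.1 kb region passed under all 14 alternatives run.

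The 10 Jun regions spanned 105 kb, with 6 below the stable pair and 4 above it, at 13.7 to 52.4 kb from it. They flanked the stable sites on both sides rather than clustering at one edge. Of 9 Jun regions called in all 4 MEF libraries, 7 were called less often by day 10 and the other 2 were the stable pair. Over the 4 loci the same held for 12 of 25 such regions, and in the genome for 46.9% of 27904. By day 5 it held for 8 of the 25, and in the genome for 37.1%. The protein-coding genes next to Jun in GRCm38 order are Mysm1 and Fggy, and whether a region acts on Jun was not tested.

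**Figure D4:**
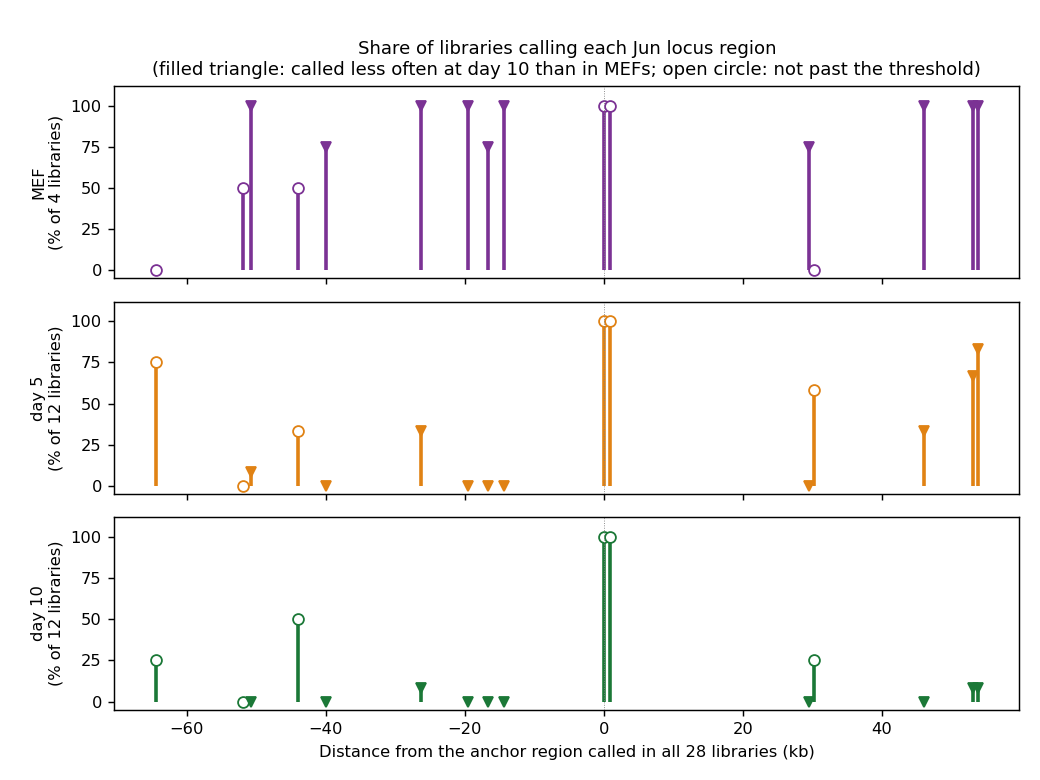
The share of libraries (%) calling each Jun region called in at least 2 libraries is plotted against its distance in kb from the wide stable region, for the 4 MEF, 12 day 5 and 12 day 10 libraries; filled triangles mark regions called less often at day 10 than in MEFs and open circles the rest. The pair at 0 and 0.92 kb stays at 100%. No day 10 triangle stands above 1 of 12 libraries, which the threshold that defines the triangles nearly requires.

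At Fos, both regions that fell lay above the stable sites. The region chr12:86860461-86860857, at +33.6 kb from the Fos anchor, was the strongest MEF site of the locus, with folds of 13.8, 9.74, 10.2 and 13.8 in the 4 MEF libraries. It was called in none of 12 libraries at day 5 (exact adjusted p = 0.00449) or day 10 (exact adjusted p = 0.00374), against 4 of 4 in MEFs, and it passed under every alternative run for either day. The region chr12:86838391-86839056, at +11.7 kb, was called in 1 of 12 at day 5 (exact adjusted p = 0.0165) and none of 12 at day 10 (exact adjusted p = 0.00374), against 4 of 4 in MEFs, where its folds were 9.86, 7.16, 8.49 and 8.00. Its day 5 call was lost without replicate 1, 2 or 4 (highest exact adjusted p = 0.0833). Jdp2 and Batf, which encode AP-1 partners themselves, follow Fos in GRCm38 order, so regions on that side may belong to any of these genes.

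At Fosl1, the regions chr19:5429860-5430186 and chr19:5444955-5445423 were each called in none of 12 libraries at day 5 (exact adjusted p = 0.00449) and day 10 (exact adjusted p = 0.00374), against 4 of 4 in MEFs. The MEF folds were 7.97, 9.46, 5.94 and 5.83 in the first and 9.77, 6.34, 7.71 and 9.91 in the second. The first did not pass with equal numbers of peaks (exact adjusted p = 0.137 at day 10), and the second not when peaks had to cover 50% of the region (exact adjusted p = 0.0980 at day 10). At Fosl2, the region chr5:32391759-32392223 was called in 1 of 12 at day 5 (exact adjusted p = 0.0165) and none of 12 at day 10 (exact adjusted p = 0.00374), against 4 of 4 in MEFs, with MEF folds of 11.1, 6.98, 8.88 and 5.62. Its day 5 call too ended without replicate 1, 2 or 4 (highest exact adjusted p = 0.0833). It lies 46.0 kb below the stable Fosl2 region. The region chr5:32436049-32436260, only 1.16 kb from that stable region, was called in none of 12 at either day, against 3 of 4 in MEFs (exact adjusted p = 0.0311 at day 5 and 0.0276 at day 10), with MEF folds of 4.52, 3.78 and 4.83. This weak site lost its call when any 1 of those 3 MEF libraries was left out.

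The 2 regions called more often at day 10 (4.08% of 49, against 5.66% in the genome) lay at Fosl2 and Fos. The region chr5:32485397-32486094, 47.8 kb above the stable Fosl2 region, was called in 9 of 12 day 5 libraries (exact adjusted p = 0.0678) and 12 of 12 day 10 libraries (exact adjusted p = 0.00374), against none of 4 MEF libraries. At day 10 its folds ranged from 5.44 to 10.9 and its covered length from 126 to 623 bp. By vector it was called at day 5 in 4 of 4 Tet2-E, 3 of 4 Tet2-WT and 2 of 4 empty vector libraries, and at day 10 in 4 of 4 of each. This gain held under 13 of 14 alternatives and was lost when peaks had to cover 50% of the region (exact adjusted p = 0.161). The Fos region chr12:86792590-86793100, at -34.2 kb, was called in 8 of 12 day 5 libraries (exact adjusted p = 0.183) and 10 of 12 day 10 libraries (exact adjusted p = 0.0292), against none of 4 in MEFs. That call held under 2 of the 14 alternatives and ended when any 1 of the 4 MEF libraries was left out.

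Day 10 against day 5 tested the later step directly, by an exact test stratified by vector. None of 35 member regions passed in either direction, against 1% of 83195 regions called less often and 0.144% called more often in the genome. At an unadjusted p under 0.05, 3 of the 35 regions were lower at day 10, a smaller share than the 10.8% of the genome in that direction. All 3 lay at Jun, where 9 regions were tested. The Jun region at +53.9 kb was called in 1 of 12 day 10 libraries against 10 of 12 day 5 libraries, a difference of -75 percentage points (exact adjusted p = 0.0617). The region at +53.2 kb was called in 1 of 12 against 8 of 12 (exact adjusted p = 0.152). The Jun region chr4:94654478-94654740, at -64.5 kb and named after its values were seen, was called in 3 of 12 against 9 of 12 (exact adjusted p = 0.381), and in none of the 4 MEF libraries. The lower background pileup at day 10 moves with these differences, and its part in them was not tested.

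The vectors were compared over the 8 libraries of each (4 at day 5 and 4 at day 10), by an exact test stratified by day. No member region passed for Tet2-E against empty (35 tested), Tet2-E against Tet2-WT (34 tested) or Tet2-WT against empty (33 tested), and in the genome 0% passed in each. At an unadjusted p under 0.05 there were 1, 0 and 0 member regions. That 1 was the Fos region chr12:86833118-86833324, at +6.2 kb, named after its values were seen. It was called in 6 of 8 Tet2-E libraries against 1 of 8 empty vector libraries (p = 0.0469, adjusted p = 1 by that exact test), and in 4 of 8 Tet2-WT libraries. All 4 Tet2-E libraries of day 5 called it and no empty vector library of day 5 did, though the day 5 difference alone was not tested. At day 10 it was called in 2 of 4 Tet2-E and 1 of 4 empty vector libraries. For Tet2-E against empty, no member reached that unadjusted level with equal numbers of peaks or without replicate 1, 2 or 3. Without replicate 4, 1 member did. Over the genome, 0.244% of regions passed that unadjusted level with more calls and 0.235% with fewer calls in Tet2-E than in empty, 0.127% with more and 0.424% with fewer in Tet2-E than in Tet2-WT, and 0.549% with more and 0.159% with fewer in Tet2-WT than in empty. Differences between vectors ranged from -25 to 62.5 percentage points over the members for Tet2-E against empty, from -37.5 to 37.5 for Tet2-E against Tet2-WT and from -37.5 to 37.5 for Tet2-WT against empty. With 8 libraries a side and this many regions tested, adjustment could be passed only if many regions differed in nearly every library. That no region passed therefore does not show that the vectors act alike.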

How the data were processed

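The authors deposited 1 MACS2 peak list per ATAC-seq library in mm9, called per library. Bowtie2, SAMtools, bedtools and MACS2 are named in the submitters' processing notes, while their versions and settings, and whether cut sites were shifted, are not stated there. Each peak carries the authors' fold (a ratio of summit pileup to local background), their −log10 p-value and −log10 q-value, and a score, deposited as 10 times the −log10 q-value, with q under 0.01. These values were used within a list only. From fold and p, whole-number summit pileups were recovered for 100% of peaks (tolerance 0.0002 in −log10 p). Their commonest background gave a rough relative depth, not corrected for read extension, which stands in for read totals not used here.

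Peaks on chromosomes 1 to 19 and X were merged at 1 bp overlap with Python 3.11.15, NumPy 2.4.6 and SciPy 1.17.1. Regions called in at least 2 libraries, and in at least 2 of those compared, were tested by 2-sided exact tests of calling libraries with Benjamini-Hochberg adjustment over the genome. The smallest p for 4 against 12 libraries is 0.000549. The tests were checked on simulated data. Named with coordinates were the regions called in all 28 libraries with the highest folds (up to 2 per locus), and up to 8 per locus and direction past the threshold. The Jun region at -64.5 kb and the Fos region at +6.2 kb were named besides, after their values were seen. The alternatives were run on all regions past it, and 2 further Jun regions are given by distance alone. The loci and rules were chosen with earlier results of these data known. Other AP-1 genes and cell type markers were not analysed here, since no mm9 annotation was used. No lists were identical. Same-numbered libraries of different groups were not treated as pairs in the main tests. Their deviations correlated by -0.0185 to 0.0902 over 84 pairs.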

Additional observations from a re-analysis of the deposited data

Results flagged for a closer look

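In 56 groups of 4 values (peaks and covered length per locus), 6 held a library far from the other 3, judged by its gap over the range of the group (Dixon's 95% critical value), where chance gives about 1 in 20. At Jun, Tet2-E replicate 4 at day 5 held 7 peaks (6 in each of the others), Tet2-WT replicate 4 at day 5 held 6 peaks (5 in each of the others) and Tet2-WT replicate 3 at day 10 held 3 peaks (4 in each of the others). The Jun covered length of empty vector replicate 3 at day 10 was 1027 bp (800, 815 and 827 bp in the others). At Fosl2, Tet2-WT replicate 1 at day 5 held 3 peaks (5 in each of the others) and empty vector replicate 1 at day 10 held 8 peaks (4 in each of the others). Counts of peaks this small are often tied, so a difference of 1 peak is enough to stand apart.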

How the results depend on the processing

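No region past the threshold changed direction under any of the 14 alternatives. Of these regions, 2 of 12 at day 5 and 6 of 18 at day 10 stayed past the threshold under all of them. The count called less often at day 5 (12) was 5 to 8 with 1 replicate number left out of every group, 8 to 11 without 1 MEF library (an alternative added after the data were seen), and otherwise 8 to 16. The count called less often at day 10 (16) was 10 with equal numbers of peaks in the lists, 9 to 13 with 1 replicate number left out, and 12 to 15 without 1 MEF library. Fewer libraries raise the smallest p that the test can give. For Jun alone, the 6 regions at day 5 became 2 to 4 with 1 replicate number left out, 3 to 5 without 1 MEF library and 10 where peaks had to cover 50% of a region. The 10 Jun regions at day 10 became 4 to 7, 7 to 9 and 6 with an equal number of peaks. The count called more often at day 10 (2) was 0 where peaks had to cover 50% of a region, and 1 with a −log10 q of at least 5, with 1 replicate number left out and without any 1 MEF library. The count called more often at day 5 (0) was 1, a Fosl1 region, with an equal number of peaks. Day 10 against day 5 gave 1 lower Jun region in place of 0 when a region had to be called by 4 or more libraries of that comparison. The Fosl1 covered length over that of MEFs reversed, from 0.854 to 1.10 at day 5 and from 0.866 to 1.27 at day 10, with an equal number of peaks. The causes were not tested.

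Deviations of same-numbered libraries correlated by 0.0902 at most, which does not settle whether the replicate numbers pair the libraries. At day 10 the background pileup fell from replicate 1 to replicate 4 in each vector (Tet2-E 0.768 to 0.361, Tet2-WT 0.619 to 0.395, empty 0.506 to 0.420). A replicate block was therefore run as a check. With it, 8 regions were called less often at day 5, 12 less often and 1 more often at day 10, and 0 in each other comparison. The limits are those of peak calls in 4 MEF libraries: a region called in 3 of 4 passes by a narrow margin, depth can bear on a call, and 21 of 71 regions seen in 1 library were left out by the filter.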
